A study of Mus with 9 samples.

Results

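The genes described here are 52 components of the mouse DNA replication machinery, chosen by gene symbol from a list that runs from origin recognition to nucleotide supply. All 52 were among the 54532 genes of the deposited count table, and all 52 were among the 15660 genes that passed the filter on low counts. No measured value entered the choice of symbols, although results of these data were known when the list was drawn up. RNA levels were measured by sequencing of total RNA from bone marrow cells in 9 libraries, which fall into 3 groups of 3.

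Every group started from fetal liver of embryonic day 12.5 in which AML1-ETO, tagged with mCherry, was knocked in conditionally. AML1-ETO is the RUNX1-RUNX1T1 fusion protein of acute myeloid leukaemia, and the submitters describe the knock-in mouse as having a pre-leukaemic myeloproliferative disease. The donor cells were infected with a retrovirus, and those positive for mCherry and GFP were given, with supportive cells, to lethally irradiated C57BL/6 mice. In the group labelled CCND2mut the MSCV-IRES-EGFP vector held cyclin D2 with the change Thr280Ala. In the group labelled CCND2wt it held unchanged cyclin D2, and in the group labelled Vec it was empty. No group lacks AML1-ETO, so that each comparison is made on that background. The age of the recipients, the promoter that activates the knock-in, the species of the cyclin D2 sequence and the share of host or supportive cells in the marrow are not stated in the labels.

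DNA replication starts at origins, where the origin recognition complex, CDC6 and CDT1 load the MCM2-7 helicase in G1, a step known as licensing. In S phase, the CDC7-DBF4 kinase and the cyclin-dependent kinases, among them cyclin E-CDK2, add CDC45 and GINS to the helicase and start unwinding. Polymerase alpha with primase lays the primers, polymerases epsilon and delta extend them on the PCNA clamp, and the flap nuclease and ligase join the lagging strand. Cyclin D2 binds CDK4 and CDK6, which phosphorylate RB proteins and release E2F factors, and many replication genes are E2F targets. In bone marrow, dividing progenitors express these genes, and granulocytes lower them as they mature.

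Total counts were 15043755 to 17593634 per library. Ccnd2 itself stood at 12.6, 58.2 and 51.1 CPM (counts relative to library size, after TMM scaling, a trimmed mean of ratios) in CCND2mut libraries, at 7.30, 9.29 and 11.1 in CCND2wt libraries and at 76.2, 79.0 and 86.2 in Vec libraries. It was thus lowest in the libraries labelled CCND2wt (log2 fold change -3.12, SE 0.502, edgeR adjusted p = 0.00546 against Vec), which goes against a label of added cyclin D2. Reads from a cyclin D2 of other origin may not map to mouse Ccnd2. All directions below are therefore between libraries labelled CCND2mut, CCND2wt and Vec. The 3 CCND2wt libraries were far more alike than those of the other groups. Between CCND2wt libraries the chi-square statistic per gene was 7 to 17.7, and between libraries within CCND2mut or within Vec it was 53.3 to 148. Vec 1 held 1.51% haemoglobin and 0.588% immunoglobulin counts, against at most 0.356% and 0.0441% in the other libraries. The 8 pan-leukocyte markers had counts in all 3 groups, but not at equal levels. They summed to 4595 to 6170 CPM in CCND2mut, 2297 to 2376 in CCND2wt and 3322 to 4008 in Vec, without overlap. Whether the 3 libraries of each group come from separate animals is not said in the labels, and the p-values therefore measure the spread between these libraries alone, which may be technical.

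Marrow labelled CCND2wt was first set against marrow labelled Vec. Of the 52 replication genes, 35 rose in CCND2wt, while 9.71% of all 15660 genes tested rose. The remaining 17 did not pass the test, and 0 fell, while 9.05% of all genes fell. The median log2 fold change of the 52 was 1.01, against -0.04 over all genes. Each of the 7 MCM family genes and of the 9 polymerase and primase genes rose, as did 5 of 6 helicase activators, while only 1 of 6 origin recognition genes and 1 of 6 S-phase kinase genes did. Changes were tested with edgeR's quasi-likelihood test and called at an adjusted p below 0.05 over all tested genes. At an unadjusted p below 0.05, 41 members were higher and 0 lower, and DESeq2 and limma-voom also called 0 members lower. The 3 CCND2wt libraries all lay above the 3 Vec libraries for 42 members, while 24.6% of all genes showed this order. A larger share of dividing cells and more replication RNA per cell cannot be told apart in RNA of whole marrow. With the CCND2wt libraries summed to 1 sample, edgeR called only Pole, and with each library left out in turn the count was 22 to 42, the 22 without CCND2wt 2 or CCND2wt 4 and the 42 without Vec 1. Cdt1, Gmnn, Mcm7, Gins3, Pold2, Pold3, Pole2, Rfc3, Rfc4, Rpa1, Rpa3, Tk1 and Rrm1 lost their calls without CCND2wt 2 or CCND2wt 4 (edgeR adjusted p = 0.0507 to 0.146), and some of these also without CCND2wt 3, CCND2mut 3, Vec 2 or Vec 4 (adjusted p = 0.0503 to 0.129).

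Marrow labelled CCND2mut was then set against the same Vec libraries, so that both comparisons share their reference samples. Of the 52 genes, 44 rose, while 24.9% of all genes rose. The clamp gene Pcna and the clamp loader gene Rfc2 fell, while 26.9% of all genes fell. The 6 that did not pass the test were Orc3, Orc4, Ccne1, Cdk2, Pola2 and Tk1. The median log2 fold change of the 52 was 1.09, against -0.03 over all genes. The CCND2mut libraries all lay above the Vec libraries for 42 members (27.4% of all genes) and below them for 3, Orc4, Pcna and Rfc2 (29.2% of all genes). Of the 46 calls, 33 held in all 20 other fits, and a threshold of at least 2-fold left 29. The 13 lost in at least 1 of the 20 fits were Orc1, Orc5, Cdc6, Gins3, Gins4, Ccne2, Cdc7, Pola1, Pold2, Pold3, Pcna, Rfc3 and Rrm2. Leaving out Vec 4 lost 10 of the 46 calls, leaving out CCND2mut 1, CCND2mut 3 or Vec 2 lost 7 each, and leaving out CCND2mut 2 or any CCND2wt library lost 1 to 3 (edgeR adjusted p = 0.0508 to 0.118).

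Some genes passed the test against Vec in CCND2mut and not in CCND2wt, namely Orc1, Orc2, Orc5, Cdc6, Gins4, Ccne2, Cdc25a, Dbf4, Rfc1, Fen1 and Rrm2. For Pola2 and Tk1 it was the reverse. This does not show a difference between the groups, and of these 13 genes Rfc1, Pola2 and Tk1 passed the test of CCND2mut against CCND2wt itself. Without Vec 1, 7 more members rose in CCND2wt, namely Orc2, Cdc6, Ccne1, Ccne2, Rfc1, Fen1 and Rrm2.

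**Figure D1:**
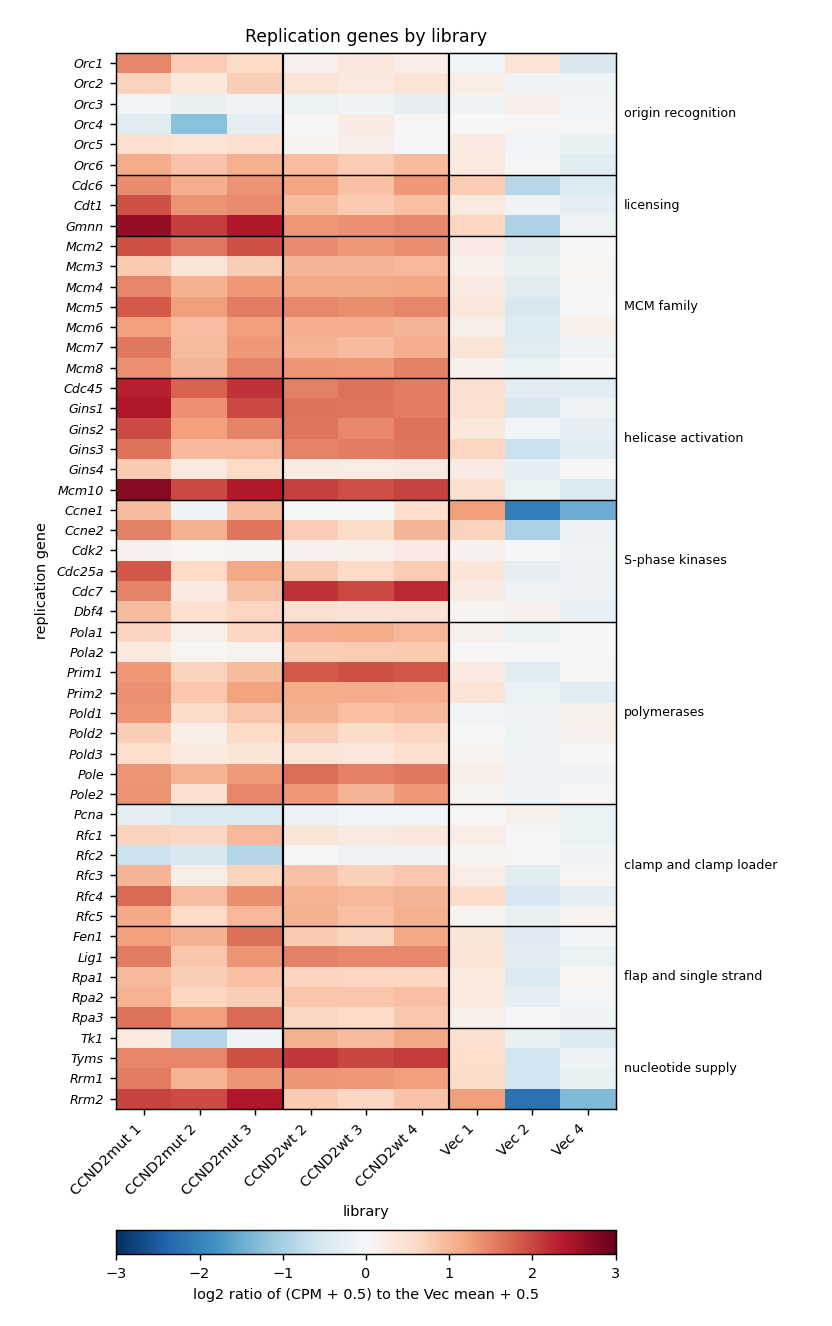
Level of each of the 52 replication genes (rows, grouped by role) in each of the 9 libraries (columns, CCND2mut, CCND2wt, Vec from left to right), as the log2 ratio of CPM to the mean of the 3 Vec libraries, with 0.5 added to both. Most rows were above 0 in all CCND2mut and CCND2wt libraries, exceptions included Orc3, Orc4, Pcna, Rfc2, Tk1 and Ccne1, and CCND2mut 2 was the lowest of its group for 49 of the 52.

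In the direct comparison, CCND2mut marrow had higher levels of 5 replication genes (9.62%) than CCND2wt marrow and lower levels of 8 (15.4%). Of all genes, 23.2% were higher and 23.8% lower, so that both shares of the 52 were below those of all genes. The 5 higher genes were Cdt1, Gmnn, Mcm2, Rfc1 and Rpa3. The 8 lower genes were Orc4, Cdc7, Pola1, Pola2, Prim1, Pole, Rfc2 and Tk1. The polymerase alpha-primase complex thus held 3 of the 8. The median log2 fold change of the 52 was 0.07, against 0.02 over all genes. The groups did not overlap for 12 members higher in CCND2mut (30.9% of all genes) and for 11 lower in it (32.2% of all genes). Scaling by total counts alone moved the median of all genes to -0.15 and gave 1 member higher, Rpa3, and 10 lower. The calls of Cdc7, Pola2, Prim1, Rfc2, Rpa3 and Tk1 held in every other fit except that with the CCND2wt libraries summed to 1 sample, where edgeR called 0 members and 6 had an unadjusted p below 0.05. A threshold of at least 2-fold left 3 of the 13, Gmnn, Cdc7 and Tk1. Orc4, Cdt1, Gmnn, Mcm2, Pola1, Pole and Rfc1 lost their calls without at least 1 of the CCND2wt libraries (edgeR adjusted p = 0.0522 to 0.144). Some of them also lost their calls without 1 of the CCND2mut libraries or without Vec 4 (adjusted p = 0.0546 to 0.123).

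**Figure D2:**
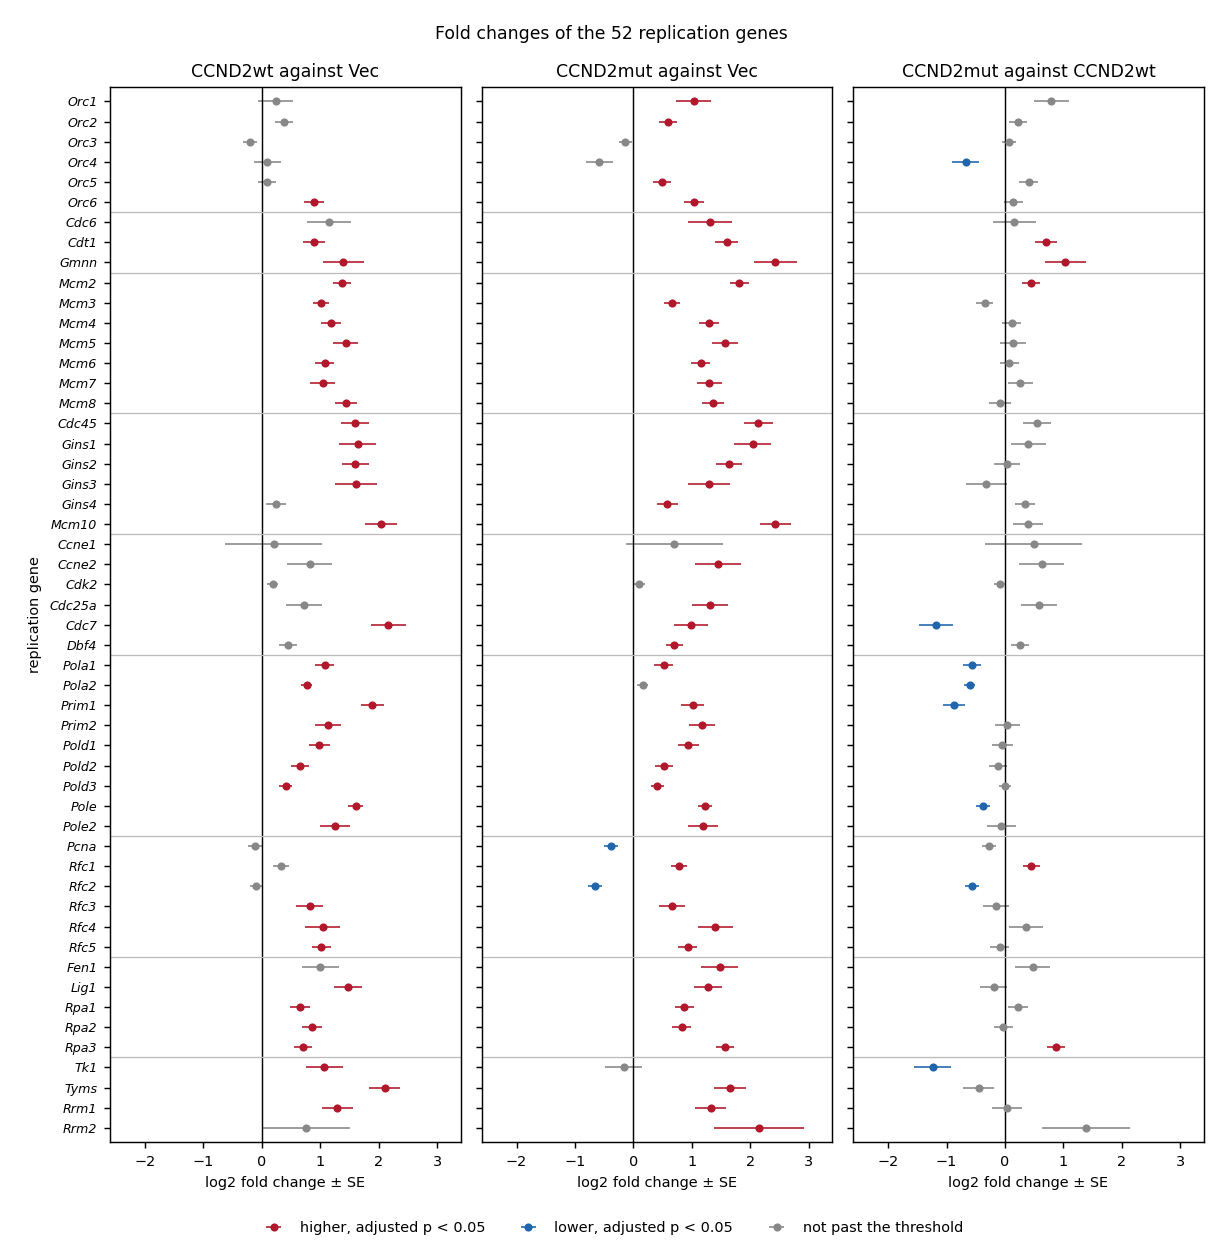
Log2 fold change of each of the 52 replication genes (rows, grouped by role) in CCND2wt against Vec, CCND2mut against Vec and CCND2mut against CCND2wt (panels from left to right), with bars for the standard error of the edgeR fit. Colour marks genes with an adjusted p below 0.05, which were 35 higher in the first panel, 44 higher and 2 lower in the second, and 5 higher and 8 lower in the third.

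The origin recognition complex had the smallest median changes of the 9 role groups against Vec. In CCND2wt against Vec, 1 of its 6 genes rose and the median log2 fold change was 0.16. In CCND2mut against Vec 4 of 6 rose, and the median was 0.54. Orc6 (ENSMUSG00000031697; chromosome 8, 85299632 to 85308278) encodes the smallest subunit and stood at 58.6, 48.3 and 56.8 CPM in CCND2mut, at 50.9, 45.5 and 51.7 CPM in CCND2wt and at 33.0, 25.9 and 21.2 CPM in Vec libraries. Every CCND2mut and CCND2wt library lay above every Vec library, and Orc6 rose by 1.03 in CCND2mut (SE 0.168, edgeR adjusted p = 0.00123) and by 0.89 in CCND2wt (SE 0.168, adjusted p = 0.00974). Orc4 (ENSMUSG00000026761; chromosome 2, 48902824 to 48950277) encodes a core subunit and stood at 29.8, 15.6 and 31.1 CPM in CCND2mut, at 37.8, 45.1 and 39.0 CPM in CCND2wt and at 38.1, 39.4 and 36.9 CPM in Vec libraries. CCND2mut 2 was lowest, and all 3 CCND2mut libraries lay below the other 6. Orc4 fell in CCND2mut against CCND2wt (log2 fold change -0.67, SE 0.235, edgeR adjusted p = 0.0429), and against Vec it had -0.58 (adjusted p = 0.0657). Orc4 overlaps 770 bases of Mbd5 and 446 bases of Acvr2a on the opposite strand, which had log2 fold changes of -1.05 and -0.73 in CCND2mut against CCND2wt (edgeR adjusted p = 0.000389 and 0.0334). The strand setting of the counting is not stated in the labels, and the part of these reads in the Orc4 result was not tested. Orc3, also a core subunit, stood at 63.7, 57.0 and 62.4 CPM in CCND2mut, at 58.2, 61.4 and 55.4 CPM in CCND2wt and at 61.2, 77.3 and 62.9 CPM in Vec libraries, with overlapping groups and no call. Orc1, Orc2 and Orc5 rose in CCND2mut against Vec by 0.49 to 1.03 on the log2 scale, and their values in CCND2wt were 0.08 to 0.38 without a call.

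Of the 3 licensing factors, 3 rose in CCND2mut and 2 in CCND2wt against Vec, with medians of 1.60 and 1.15. CDT1 brings the MCM helicase to origins and geminin, the product of Gmnn, binds and inhibits CDT1. Gmnn (ENSMUSG00000006715; chromosome 13, 24751845 to 24761923) stood at 97.9, 66.4 and 83.4 CPM in CCND2mut, at 38.4, 40.3 and 42.3 CPM in CCND2wt and at 24.4, 7.81 and 13.8 CPM in Vec libraries. The 3 groups did not overlap, and Vec 1 was the highest of its group. Gmnn rose by 2.43 in CCND2mut against Vec (SE 0.364, edgeR adjusted p = 0.000889), by 1.39 in CCND2wt against Vec (SE 0.354, adjusted p = 0.0298) and by 1.03 in CCND2mut against CCND2wt (SE 0.347, adjusted p = 0.0381). Cdt1 (ENSMUSG00000006585; chromosome 8, 122568015 to 122573554) stood at 178, 120.2 and 126 CPM in CCND2mut, at 90.2, 81.6 and 88.5 CPM in CCND2wt and at 57.7, 43.8 and 39.0 CPM in Vec libraries. These groups did not overlap either, and Cdt1 rose 3.02-fold in CCND2mut and 1.85-fold in CCND2wt against Vec (edgeR adjusted p = 0.000287 and 0.0152), and 1.63-fold in CCND2mut against CCND2wt (adjusted p = 0.0143). Cdc6, the ATPase that loads the helicase together with the origin recognition complex, stood at 66.1, 52.5 and 62.8 CPM in CCND2mut, at 56.6, 45.1 and 61.3 CPM in CCND2wt and at 41.8, 13.3 and 18.3 CPM in Vec libraries. Vec 1 was the highest Vec library for Cdc6 and lay below all CCND2wt libraries. Cdc6 rose in CCND2mut (1.30, edgeR adjusted p = 0.0194), and its value in CCND2wt was 1.15 (adjusted p = 0.0656), or 1.8 without Vec 1 (adjusted p = 0.00138).

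The MCM2-7 helicase genes shared their direction against Vec, though not the size of the rise. All 6, and Mcm8, a relative that acts in recombination repair, rose in CCND2mut and in CCND2wt against Vec, and in neither comparison did the groups overlap for any of the 7. Log2 fold changes ran between 0.66 and 1.81 in CCND2mut and between 1.01 and 1.45 in CCND2wt. Mcm2 (ENSMUSG00000002870; chromosome 6, 88883474 to 88898780) stood at 424, 335 and 424 CPM in CCND2mut, at 300.0, 276 and 296 CPM in CCND2wt and at 133, 90.7 and 113 CPM in Vec libraries. Here CCND2mut lay above CCND2wt and CCND2wt above Vec in every library, with log2 fold changes of 1.81 in CCND2mut (SE 0.163, edgeR adjusted p = 7.92e-05) and 1.37 in CCND2wt (SE 0.161, adjusted p = 0.00164) against Vec. The step between CCND2mut and CCND2wt was 0.44 (SE 0.158, edgeR adjusted p = 0.0477) and lost its call in 13 of the 20 other fits. Mcm3 had the opposite order, with 354, 274 and 342 CPM in CCND2mut, 415, 414 and 408 CPM in CCND2wt and 228, 174 and 213 CPM in Vec libraries. All CCND2mut values of Mcm3 lay below all CCND2wt values, but the difference of -0.35 did not pass (edgeR adjusted p = 0.0663). Mcm4, Mcm5, Mcm6, Mcm7 and Mcm8 differed between CCND2mut and CCND2wt by -0.08 to 0.26, none with a call.

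The genes that turn the loaded helicase into a moving one had the largest median rise of the 9 role groups, 1.84 in CCND2mut and 1.61 in CCND2wt against Vec. MCM10, which acts in helicase activation, and CDC45 and GINS, which ride with MCM2-7, make up this group. Mcm10 (ENSMUSG00000026669; chromosome 2, 4989714 to 5012791) stood at 115, 68.6 and 89.9 CPM in CCND2mut, at 71.2, 66.3 and 70.3 CPM in CCND2wt and at 23.8, 14.5 and 12.3 CPM in Vec libraries. The lowest CCND2mut and CCND2wt libraries were far above the highest Vec library, a rise of 5.39-fold in CCND2mut (SE 0.271 on the log2 scale, edgeR adjusted p = 0.000205) and 4.10-fold in CCND2wt (SE 0.268, adjusted p = 0.00251). Cdc45 (ENSMUSG00000000028; chromosome 16, 18780447 to 18811987) stood at 89.0, 60.5 and 80.5 CPM in CCND2mut, at 50.7, 55.0 and 51.8 CPM in CCND2wt and at 24.4, 13.8 and 14 CPM in Vec libraries. The 3 groups did not overlap, and Cdc45 rose 4.40-fold in CCND2mut and 3.02-fold in CCND2wt against Vec (edgeR adjusted p = 0.000222 and 0.00409). Gins1, Gins2 and Gins3 rose by 1.30 to 2.04 in CCND2mut and by 1.60 to 1.64 in CCND2wt. Gins4 stood apart from its partners, at 44.9, 32.0 and 39.3 CPM in CCND2mut, 30.8, 30.1 and 31.3 CPM in CCND2wt and 31.0, 21.1 and 25.6 CPM in Vec libraries. Its Vec 1 value was within the CCND2wt range, and it rose in CCND2mut against Vec (log2 fold change 0.58, SE 0.174, edgeR adjusted p = 0.0212), with 0.25 in CCND2wt (adjusted p = 0.345). Between CCND2mut and CCND2wt edgeR called 0 of the 6 helicase activators, 1 had an unadjusted p below 0.05, and DESeq2 called 0 and limma-voom 1.

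The kinases of S phase split. Cdc7 (ENSMUSG00000029283; chromosome 5, 106964322 to 106984432) encodes the kinase that phosphorylates MCM2-7, and DBF4 is its activating partner. Cdc7 stood at 58.4, 24.3 and 37.9 CPM in CCND2mut, at 93.3, 81.8 and 98.6 CPM in CCND2wt and at 24.6, 18.3 and 18.1 CPM in Vec libraries. All CCND2wt libraries were above all others, and CCND2mut 2 fell within the Vec range. Cdc7 rose 4.49-fold in CCND2wt against Vec, the largest fold of the 52 there (log2 fold change 2.17, SE 0.297, edgeR adjusted p = 0.003), and 1.98-fold in CCND2mut (edgeR adjusted p = 0.0203). In CCND2mut against CCND2wt it fell (log2 fold change -1.18, SE 0.287, edgeR adjusted p = 0.00966). Dbf4 stood at 98.0, 70.5 and 79.3 CPM in CCND2mut, at 70.5, 68.7 and 68.4 CPM in CCND2wt and at 53.8, 55.6 and 42.9 CPM in Vec libraries. It rose in CCND2mut (0.70, edgeR adjusted p = 0.00435), and in CCND2wt it had 0.45 (adjusted p = 0.0658) although its groups did not overlap. Cdc25a, the phosphatase that activates CDK2, and Ccne2, a cyclin E, rose in CCND2mut by 1.31 and 1.44 and had values of 0.72 and 0.82 in CCND2wt without a call. Cdk2 stood at 166, 158 and 159 CPM in CCND2mut, at 166, 169 and 180.1 CPM in CCND2wt and at 164, 153 and 136 CPM in Vec libraries, with no call in any comparison.

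Ccne1, the other cyclin E gene, is described because of 1 library and was chosen after its values were seen. It stood at 17.2, 7.95 and 17.1 CPM in CCND2mut, at 8.68, 8.89 and 12.4 CPM in CCND2wt and at 21.5, 1.70 and 2.76 CPM in Vec libraries. Vec 1 was the highest of all 9 libraries, while Vec 2 and Vec 4 were the lowest. Its log2 fold changes were 0.70 in CCND2mut and 0.21 in CCND2wt against Vec, with no call. Without Vec 1 they were 2.65 in CCND2mut (edgeR adjusted p = 0.00172) and 2.19 in CCND2wt (adjusted p = 0.0123). The erythroid markers summed to 17080 CPM in Vec 1, against 154 in Vec 2 and 3859 in Vec 4. Vec 1 also stood apart in the sums of maturing neutrophil markers (15880 against 1022 and 1115 CPM) and B cell markers (362.4 against 49.98 and 78.21). The same held for mitosis genes (2040 against 825.9 and 826.2 CPM). Its stem and progenitor sum and its megakaryocyte sum were the lowest of its group (2016 and 354 CPM). The part of any of these in the Ccne1 level was not tested.

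Of the 9 polymerase and primase genes, 4 were lower in CCND2mut than in CCND2wt (44.4%), while 23.8% of all genes were lower. In CCND2wt against Vec 9 of 9 rose (median 1.08), and in CCND2mut against Vec 8 of 9 (median 0.94). Prim1 (ENSMUSG00000025395; chromosome 10, 128015168 to 128030037) encodes the catalytic subunit of primase and stood at 76.7, 50.2 and 60.0 CPM in CCND2mut, at 113, 118 and 113 CPM in CCND2wt and at 37.3, 23.8 and 31.5 CPM in Vec libraries. The groups did not overlap, and CCND2mut lay between the others. Prim1 rose by 1.01 in CCND2mut (SE 0.194, edgeR adjusted p = 0.00278) and by 1.89 in CCND2wt (SE 0.198, adjusted p = 0.00108) against Vec, and in CCND2mut against CCND2wt it fell by 0.88 (SE 0.193, adjusted p = 0.00576). Pola2 (ENSMUSG00000024833; chromosome 19, 5940543 to 5964206) encodes the B subunit of polymerase alpha and stood at 88.8, 75.6 and 77.0 CPM in CCND2mut, at 121, 122 and 125 CPM in CCND2wt and at 72.0, 72.3 and 72.1 CPM in Vec libraries. The Vec libraries were nearly equal, with CCND2mut slightly above them (0.16, edgeR adjusted p = 0.182). Pola2 rose in CCND2wt against Vec (log2 fold change 0.77, SE 0.0934, edgeR adjusted p = 0.00185) and fell in CCND2mut against CCND2wt (log2 fold change -0.61, SE 0.0932, edgeR adjusted p = 0.000975).

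Pola1, the catalytic subunit of polymerase alpha, stood at 60.2, 42.1 and 59.4 CPM in CCND2mut, at 80.6, 82.6 and 75.6 CPM in CCND2wt and at 42.2, 32.6 and 38.3 CPM in Vec libraries. CCND2mut 2 overlapped Vec, and Pola1 rose 1.43-fold in CCND2mut and 2.11-fold in CCND2wt against Vec (edgeR adjusted p = 0.0247 and 0.00384). Prim2, the large subunit of primase, did not share the order of its 3 partners. It stood at 39.0 ± 7.72 CPM in CCND2mut, 38.0 ± 0.382 CPM in CCND2wt and 17.4 ± 5.22 CPM in Vec (mean ± SD, n = 3 each), with a difference of 0.04 between CCND2mut and CCND2wt (edgeR adjusted p = 0.895). Pole (ENSMUSG00000007080; chromosome 5, 110286306 to 110337474) encodes the catalytic subunit of polymerase epsilon, which copies the leading strand. It stood at 96.5, 78.7 and 93 CPM in CCND2mut, at 123, 109.7 and 116 CPM in CCND2wt and at 43.2, 35.6 and 35.8 CPM in Vec libraries. The groups did not overlap, and Pole had the smallest adjusted p of the 52 in CCND2wt against Vec (log2 fold change 1.61, SE 0.125, edgeR adjusted p = 0.000263). In CCND2mut it rose by 1.23 against Vec (edgeR adjusted p = 0.000128) and was lower than in CCND2wt by 0.38 (adjusted p = 0.0308). Pold1, Pold2, Pold3 and Pole2, of polymerases delta and epsilon, rose by 0.41 to 1.19 in CCND2mut and by 0.41 to 1.26 in CCND2wt, with differences of -0.12 to -0.04 between those groups for Pold1, Pold2 and Pole2 and of -0.00 for Pold3.

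**Figure D3:**
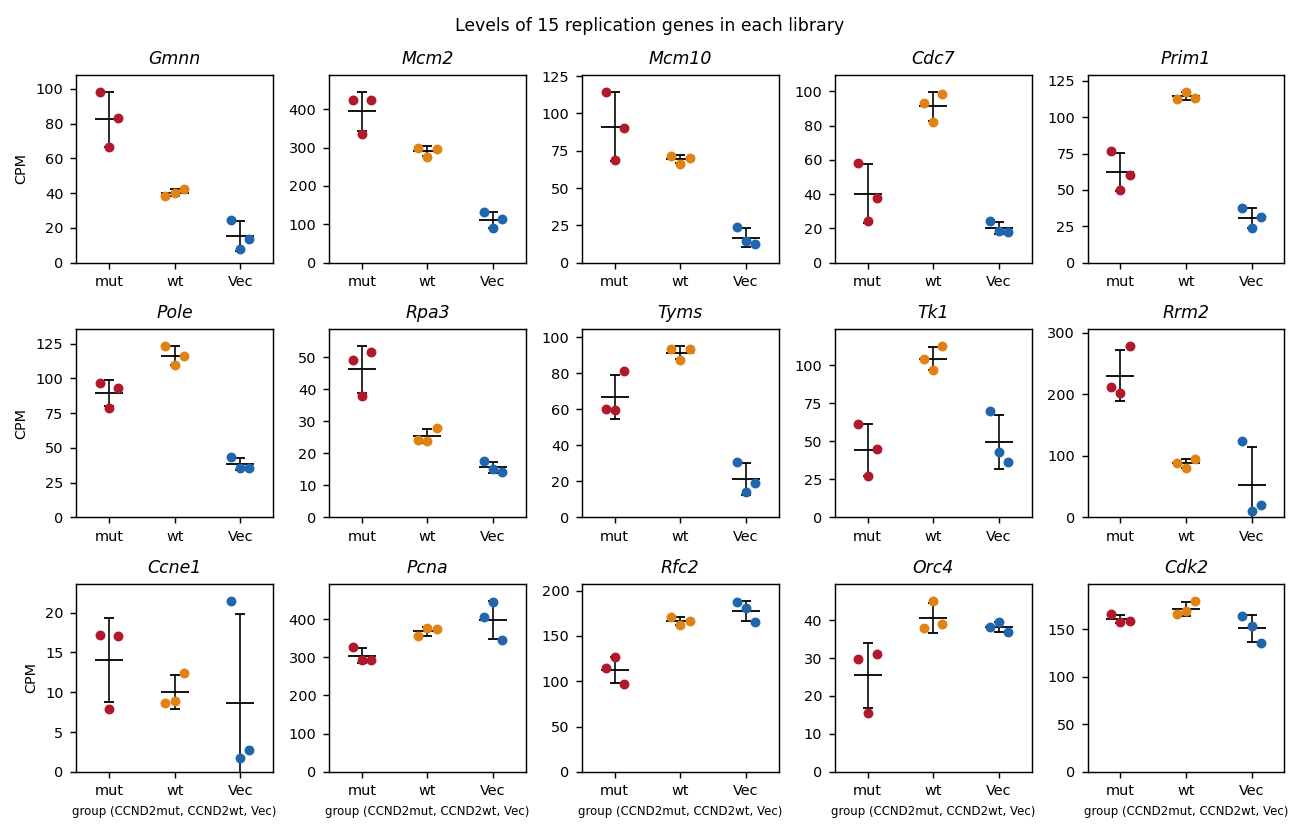
CPM of 15 replication genes in each library (points), with the mean (long bar) and SD (error bars, cut at 0) of the 3 libraries of CCND2mut, CCND2wt and Vec from left to right. Cdc7, Prim1, Pole, Tyms and Tk1 were highest in CCND2wt, and Gmnn, Mcm2 and Rpa3 in CCND2mut. Mcm10 had its highest mean in CCND2mut, where its libraries overlapped those of CCND2wt. Vec 1 stood far above the other Vec libraries for Rrm2 and Ccne1. The axes start at 0 and differ between genes.

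The sliding clamp went the other way. Pcna (ENSMUSG00000027342; chromosome 2, 132249162 to 132253314), which encodes the clamp that holds polymerases on DNA, stood at 328, 294 and 292 CPM in CCND2mut, at 355, 375 and 375 CPM in CCND2wt and at 405, 444 and 346 CPM in Vec libraries. Every CCND2mut library lay below every other library, CCND2wt overlapped Vec, and Pcna fell by 0.39 in CCND2mut against Vec (SE 0.119, edgeR adjusted p = 0.024). This call was lost in 4 of the 20 other fits, among them that without CCND2mut 3 (log2 fold change -0.35, adjusted p = 0.0749 in edgeR). Per length, Pcna nonetheless had the highest mean level of the 52 in each group, 339.5 TPM (a library's counts divided by gene length and scaled to a fixed sum, computed here) in CCND2mut, 534.6 in CCND2wt and 510.5 in Vec. A Pcna copy listed as Pcna-ps2 had 297 counts over all libraries, against 52982 for Pcna. The clamp loader genes did not move together. Rfc2 (ENSMUSG00000023104; chromosome 5, 134581366 to 134601805) stood at 114, 126 and 96.9 CPM in CCND2mut, at 171, 163 and 166 CPM in CCND2wt and at 187, 181 and 166 CPM in Vec libraries. All CCND2mut libraries lay below the other 6, and Rfc2 fell against Vec (log2 fold change -0.66, SE 0.116, edgeR adjusted p = 0.00181) and against CCND2wt (log2 fold change -0.57, SE 0.116, edgeR adjusted p = 0.00408). Rfc2 shares 1784 bases with Lat2 on the opposite strand, which averaged 23.7 ± 16.8 CPM in CCND2mut, 55.2 ± 5.47 CPM in CCND2wt and 126 ± 8.51 CPM in Vec (SD, n = 3 each). The part of Lat2 reads in the Rfc2 result was not tested.

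The large loader subunit gene Rfc1 stood at 129.9, 126 and 161 CPM in CCND2mut, at 105, 96.9 and 103 CPM in CCND2wt and at 94.6, 77.6 and 70.4 CPM in Vec libraries. The 3 groups did not overlap. Rfc1 rose in CCND2mut against Vec (log2 fold change 0.78, SE 0.142, edgeR adjusted p = 0.00214) and against CCND2wt (log2 fold change 0.45, SE 0.141, edgeR adjusted p = 0.0282), while CCND2wt against Vec had 0.33 (edgeR adjusted p = 0.134). Rfc5, a small loader subunit, stood at 72.3, 48.8 and 65.7 CPM in CCND2mut, at 68.9, 61.2 and 68.8 CPM in CCND2wt and at 34.7, 28.0 and 35.5 CPM in Vec libraries. Every CCND2mut and CCND2wt library lay above every Vec library, and Rfc5 rose by 0.93 in CCND2mut and by 1.02 in CCND2wt (edgeR adjusted p = 0.00187 and 0.00522). Rfc3 and Rfc4 also rose in both, by 0.66 and 1.40 in CCND2mut and by 0.82 and 1.04 in CCND2wt.

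Genes of lagging strand joining and of single-strand binding rose in CCND2mut in 5 of 5 cases and in CCND2wt in 4 of 5. Lig1 (ENSMUSG00000056394; chromosome 7, 13277283 to 13311433) encodes the ligase that seals the lagging strand and stood at 232, 139.6 and 195 CPM in CCND2mut, at 225, 211 and 213 CPM in CCND2wt and at 104, 61.6 and 67.9 CPM in Vec libraries. CCND2mut overlapped CCND2wt and both lay above Vec, with rises of 2.42-fold in CCND2mut and 2.77-fold in CCND2wt (edgeR adjusted p = 0.00231 and 0.00514). Rpa3 (ENSMUSG00000012483; chromosome 6, 8255936 to 8259173) encodes the smallest subunit of replication protein A, which coats single-stranded DNA. It stood at 49.0, 37.9 and 51.6 CPM in CCND2mut, at 24.3, 24.0 and 27.8 CPM in CCND2wt and at 17.4, 15.1 and 14.1 CPM in Vec libraries. The 3 groups did not overlap, and Rpa3 rose by 1.57 in CCND2mut (SE 0.158, edgeR adjusted p = 0.000129) and by 0.70 in CCND2wt (SE 0.156, adjusted p = 0.0175) against Vec, and by 0.87 in CCND2mut against CCND2wt (SE 0.155, adjusted p = 0.00212). Its partners Rpa1 and Rpa2 rose by 0.87 and 0.82 in CCND2mut and by 0.65 and 0.86 in CCND2wt, and differed between those groups by 0.22 and -0.03 without a call. Fen1, the flap nuclease, had the lowest level per length of the 52, 9.16 TPM in CCND2mut, 8.48 in CCND2wt and 3.70 in Vec. It overlaps Gm10143 over 3253 bases and Tmem258 over 156 bases, both on the opposite strand. In CCND2mut against Vec these neighbours rose by 1.26 and 0.86 (edgeR adjusted p = 0.0108 and 0.000161). The part of the overlaps in the Fen1 level and result was not tested. Fen1 rose in CCND2mut (1.48, edgeR adjusted p = 0.00454), and its value in CCND2wt was 1.00 (adjusted p = 0.0552).

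Genes of thymidine and deoxynucleotide supply differed among themselves. Tyms (ENSMUSG00000025747; chromosome 5, 30058202 to 30073617) encodes thymidylate synthase, which makes thymidylate anew. It stood at 60.0, 59.5 and 81.2 CPM in CCND2mut, at 93.7, 87.3 and 93.4 CPM in CCND2wt and at 30.9, 14.1 and 18.9 CPM in Vec libraries. The groups did not overlap, and Tyms rose 3.14-fold in CCND2mut and 4.29-fold in CCND2wt against Vec (edgeR adjusted p = 0.00124 and 0.00236). Tk1 (ENSMUSG00000025574; chromosome 11, 117815526 to 117826092) encodes the thymidine kinase of the salvage route and stood at 61.0, 27.0 and 44.9 CPM in CCND2mut, at 104, 96.9 and 112 CPM in CCND2wt and at 69.6, 42.8 and 36.5 CPM in Vec libraries. CCND2mut overlapped Vec, and CCND2wt lay above both. Tk1 rose in CCND2wt against Vec (log2 fold change 1.07, SE 0.318, edgeR adjusted p = 0.0493), fell in CCND2mut against CCND2wt (log2 fold change -1.24, SE 0.32, edgeR adjusted p = 0.0129), and CCND2mut against Vec had -0.16 (edgeR adjusted p = 0.685).

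Rrm2 (ENSMUSG00000020649; chromosome 12, 24708241 to 24714146) encodes the small subunit of ribonucleotide reductase, the enzyme that makes deoxynucleotides. It stood at 211, 201 and 278 CPM in CCND2mut, at 88.9, 79.6 and 94.0 CPM in CCND2wt and at 124, 10.7 and 20.3 CPM in Vec libraries. CCND2mut was above all others, and Vec 1 lay above every CCND2wt library while Vec 2 and Vec 4 lay far below. Rrm2 rose in CCND2mut against Vec (log2 fold change 2.15, SE 0.772, edgeR adjusted p = 0.0449), a call lost in 13 of the 20 other fits, and its value in CCND2wt was 0.76 (adjusted p = 0.51). Without Vec 1, the log2 fold change in CCND2wt against Vec was 2.52 (edgeR adjusted p = 0.00147), and that in CCND2mut against CCND2wt was 1.37 (adjusted p = 0.00211). Rrm1, the large subunit, stood at 272 ± 47.3 CPM in CCND2mut, 267 ± 5.79 CPM in CCND2wt and 109 ± 45 CPM in Vec (SD, n = 3 each) and rose 2.5-fold in CCND2mut and 2.45-fold in CCND2wt (edgeR adjusted p = 0.00354 and 0.0135).

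The make-up of each complex was also described, as each subunit's share of the summed TPM of its complex, a value that library scaling does not move. The subunits named here were chosen after these shares were seen, and no test is given, since 3 against 3 libraries cannot go below p = 0.1 in an exact permutation test. Cdc7 made up 55.4%, 41.8% and 49.9% of the CDC7-DBF4 sum in CCND2mut, 73.4%, 71.3% and 75% in CCND2wt, and 48.8%, 40.8% and 46.8% in Vec. The CCND2wt libraries were thus apart from the other 6, which overlapped. Within MCM2-7, Mcm3 took 17.9%, 18.9% and 19.1% in CCND2mut, 24.7%, 25.3% and 24.5% in CCND2wt, and 25.5%, 29.5% and 27.7% in Vec. Mcm2 had the reverse order, with 11.6%, 12.4% and 12.7% in CCND2mut, 9.64%, 9.1% and 9.56% in CCND2wt, and 8.06%, 8.27% and 7.94% in Vec. For both subunits the 3 groups did not overlap, although the genes rose together against Vec.

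Within GINS, Gins4 took 41.3%, 48.5% and 46.0% in CCND2mut, 41.6%, 41.8% and 42.1% in CCND2wt, and 61.4%, 67.2% and 68.6% in Vec, where it was above every other library. Prim1 took 30.4%, 26.4% and 27.8% of polymerase alpha-primase in CCND2mut, 33.5%, 34.3% and 33.4% in CCND2wt, and 22.2%, 16.4% and 20.4% in Vec, without overlap. Within replication protein A, Rpa3 took 37.5%, 36.8% and 42.0% in CCND2mut, 26.2%, 26.1% and 28.8% in CCND2wt, and 26.1%, 32.4% and 26.0% in Vec. Only CCND2mut stood apart there. Within the clamp loader, Rfc2 took 18%, 25.9% and 16.6% in CCND2mut, 29.8%, 30.3% and 29.5% in CCND2wt, and 39.7%, 48.3% and 43.8% in Vec, so that the 3 groups were separate. The share of Rrm2 in ribonucleotide reductase was 72.3%, 78.0% and 80.2% in CCND2mut, 56.5%, 54.2% and 58.9% in CCND2wt, and 75.6%, 36.6% and 46.5% in Vec, with Vec 1 inside the CCND2mut range.

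**Figure D4:**
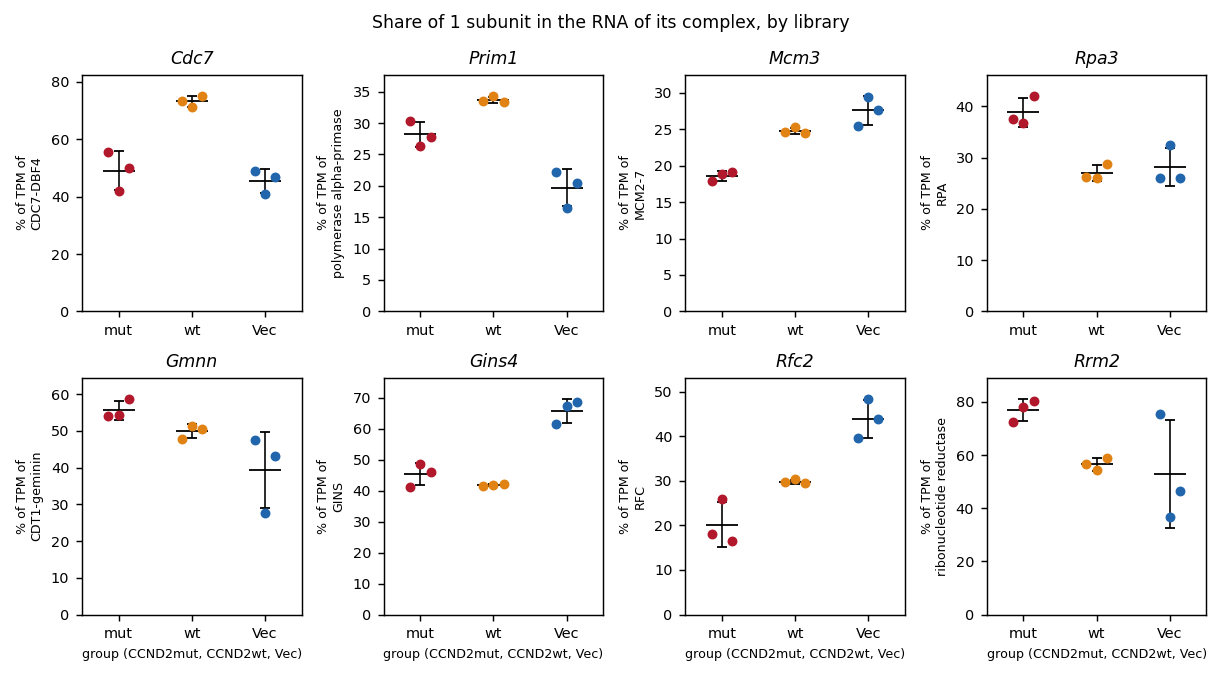
Share of 8 subunits in the summed TPM of their complex (percent) in each library (points), with mean and SD of the 3 libraries of CCND2mut, CCND2wt and Vec from left to right. The Cdc7 share was 71.3% to 75% in CCND2wt and at most 55.4% elsewhere, and the Gins4 share was 61.4% to 68.6% in Vec and at most 48.5% elsewhere.

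Levels of the 52 genes also differed between libraries of 1 group. CCND2mut 1 was the highest of its group for 40 of the 52, against 41.2% of all genes, and CCND2mut 2 was the lowest for 49, against 38.5% of all genes. Vec 1 was the highest of its group for 43, against 35.8% of all genes. In CCND2wt, libraries 2, 3 and 4 were the highest for 20, 9 and 23 of the 52 (38.5%, 17.3% and 44.2%). The shares of all genes there were 30.9%, 33.2% and 35.9%. The median log2 ratio of the members to the Vec mean was 1.32, 0.754 and 1.04 in CCND2mut, 1.02, 0.880 and 1.01 in CCND2wt, and 0.266, -0.218 and -0.141 in Vec libraries. The CCND2mut and CCND2wt libraries thus overlapped in this ratio, and all 6 lay above all 3 Vec libraries. The 52 genes took 0.636%, 0.437% and 0.595% of all counts in CCND2mut, 0.614%, 0.577% and 0.624% in CCND2wt, and 0.367%, 0.258% and 0.293% in Vec. The median coefficient of variation of the members was 19.0% in CCND2mut, 4.65% in CCND2wt and 20.9% in Vec, against 22.7%, 8.47% and 20.3% over all genes in the same groups.

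Markers of cell types differed beside these levels. The 7 promyelocyte markers summed to 5293 to 10870 CPM in CCND2mut, 2684 to 2867 in CCND2wt and 1513 to 2085 in Vec, without overlap. The sum does not stand for each marker, as only 3 of the 7 had a log2 fold change above 0 in CCND2wt against Vec. Their median there was -1.86. The 13 markers of maturing neutrophils summed to 6052 to 21540 CPM in CCND2mut, 400.7 to 515.3 in CCND2wt and 1022 to 15880 in Vec. The 11 stem and progenitor markers summed to 224.5 to 776.7 CPM in CCND2mut, 2850 to 2881 in CCND2wt and 2016 to 2731 in Vec. The progenitor and neutrophil sums of CCND2mut did not overlap those of CCND2wt. The neutrophil sums of Vec overlapped those of CCND2mut through Vec 1 alone (15880 CPM). Vec 2 and Vec 4, at 1022 and 1115 CPM, lay below every CCND2mut library. The 10 erythroid markers summed to 88.1 to 310.8 CPM in CCND2mut, 1120 to 1340 in CCND2wt and 154 to 17080 in Vec, and the 9 mast cell and basophil markers to 1584 to 14400, 10680 to 11400 and 7041 to 9541 in the same groups. The 9 monocyte and macrophage markers summed to 1083 to 4292 CPM in CCND2mut, 50.05 to 57.95 in CCND2wt and 56.03 to 315.4 in Vec. These sums do not stand for each marker either. In CCND2mut against Vec, 4 of the 8 monocyte and macrophage markers tested had a log2 fold change above 0 (median 0.47). Of the 9 mast cell and basophil markers, 6 did (median 1.55). The 7 megakaryocyte markers summed to 36.7 to 92.5 CPM in CCND2mut, 345.5 to 356.8 in CCND2wt and 354 to 444.5 in Vec. The 11 B cell markers summed to at most 15.4, 29.0 and 362.4 CPM and the 10 T and NK cell markers to at most 64.0, 43.6 and 137.4 CPM in CCND2mut, CCND2wt and Vec, with Rag1 and Klrb1c at 0 in CCND2mut. The part of the cell make-up in the replication results was not tested.

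A list of 68 other replication genes, chosen by function, was tested beside the 52. In CCND2mut against Vec 41 rose (60.3%) and 5 fell (7.35%, median 0.92), while 24.9% of all genes rose and 26.9% fell. In CCND2wt against Vec 29 rose (42.6%) and 1 fell (1.47%, median 0.59), while 9.71% of all genes rose and 9.05% fell. Among those with the smallest adjusted p, Wdhd1, which ties the helicase to polymerase alpha, rose by 1.46 in CCND2mut and by 1.53 in CCND2wt (edgeR adjusted p = 0.000143 and 0.000889). Chek1, the checkpoint kinase of S phase, rose by 1.53 in CCND2mut and by 1.63 in CCND2wt. Tk2, the mitochondrial thymidine kinase, fell by 1.81 in CCND2mut and by 1.02 in CCND2wt (edgeR adjusted p = 0.000161 and 0.0089).

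Between CCND2mut and CCND2wt, 9 of the 68 were higher (13.2%) and 6 lower (8.82%), while 23.2% of all genes were higher and 23.8% lower. Both shares of the list were thus below those of all genes. The origin firing factors Mtbp and Recql4 averaged 68.7 ± 9.4 and 45.3 ± 9.17 CPM in CCND2mut, 27.6 ± 2.55 and 18 ± 0.827 CPM in CCND2wt, and 15 ± 2.65 and 7.40 ± 2.62 CPM in Vec (SD, n = 3 each). Both rose in CCND2mut against CCND2wt, by 1.31 and 1.33 (edgeR adjusted p = 0.000391 and 0.00263). Shmt2, the mitochondrial serine hydroxymethyltransferase, rose by 1.5 (adjusted p = 0.00313 in edgeR). Chaf1b, a subunit of the chromatin assembly factor that follows the fork, averaged 29.3 ± 10.6 CPM in CCND2mut, 134 ± 3.39 CPM in CCND2wt and 108 ± 7.22 CPM in Vec, and fell in CCND2mut against CCND2wt (log2 fold change -2.19, SE 0.232, edgeR adjusted p = 0.000161) and against Vec (log2 fold change -1.88, SE 0.23, edgeR adjusted p = 0.000308). Cul4b, a ubiquitin ligase scaffold, and Ssrp1, a subunit of the histone chaperone FACT, were lower in CCND2mut than in CCND2wt by 0.48 and 0.71.

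Of 18 E2F and RB family genes, 10 rose (55.6%) and 4 fell (22.2%) in CCND2mut against Vec, while 24.9% of all genes rose and 26.9% fell. The share that fell was thus no larger than that of all genes. In CCND2wt against Vec 7 rose (38.9%) and 0 fell, while 9.71% of all genes rose and 9.05% fell. There 1 of the 18 was lower at an unadjusted p below 0.05 in edgeR, and DESeq2 called 1 lower and limma-voom 0. E2f1 rose by 1.21 in CCND2mut and by 1.5 in CCND2wt, and Rbl1, a relative of RB, by 1.05 and 1.52 in the same comparisons. Lin9, of the MuvB complex, rose by 0.82 in CCND2mut and by 1.24 in CCND2wt, and Mybl2 by 2.10 and 1.34. E2f6, a repressor, rose in CCND2mut against Vec by 1.25 and against CCND2wt by 0.61, and Tfdp1, an E2F partner, by 0.95 and 0.51. E2f5, which works with RB relatives, averaged 2.53 ± 0.307 CPM in CCND2mut, 8.21 ± 0.486 CPM in CCND2wt and 12.2 ± 2.0 CPM in Vec, and fell in CCND2mut against Vec (log2 fold change -2.27, SE 0.217, edgeR adjusted p = 0.000101) and against CCND2wt (log2 fold change -1.69, SE 0.214, edgeR adjusted p = 0.000367). Tfdp2 and Lin37 fell in CCND2mut against Vec by 1.29 and 0.48, and Lin37 also against CCND2wt by 0.41.

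The 40 mitosis genes, which act after replication, summed to 3558 to 5663 CPM in CCND2mut, 3721 to 3874 in CCND2wt and 825.9 to 2040 in Vec. In CCND2mut against Vec 35 rose and 1 fell (median 2.12), while 24.9% of all genes rose and 26.9% fell. In CCND2wt against Vec 28 rose and 0 fell (median 1.72), while 9.71% of all genes rose and 9.05% fell. In the latter, 37 were higher and 0 lower at an unadjusted p below 0.05 in edgeR, with 0 lower in DESeq2 and limma-voom. Between CCND2mut and CCND2wt edgeR called 0 of the 40, while 23.2% of all genes were higher and 23.8% lower. There 0 of the 40 had an unadjusted p below 0.05 in edgeR, and DESeq2 called 0 and limma-voom 2.

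Reads of neighbouring genes can reach some of these counts. In the deposited gene coordinates (mm10), 26 of the 52 members overlap another gene, and for 12 of them that gene had at least 10% of the member's summed counts. Besides Orc4, Rfc2 and Fen1, these were Orc1 with Gm12743, Orc2 with Nif3l1, Orc6 with Vps35, Mcm7 with Cops6 and Ap4m1, Cdc45 with Ufd1, Gins2 with Gse1, Ccne2 with Ints8, Rfc4 with Eif4a2 and Rfc5 with Wsb2. Counts of a neighbour cover its whole length, and the shared stretch can be short, as the 194 bases of Rfc4 and Eif4a2. The share therefore does not measure how far the values of these 12 members are uncertain, which was not tested.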

How the data were processed

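The deposited table holds unnormalized counts for each gene in 9 bone marrow libraries, with symbols, coordinates and lengths. Per the submitters' processing notes, CASAVA 1.8, fastp, HISAT2 2.0.5, featureCounts 1.5.0-p3 and DESeq2 1.20.0 were used with mm10. The labels' protocols name TRIzol and an NEBNext Ultra RNA kit. Which annotation release and strand setting were used is not stated in them. Each column was matched to a sample by its title.

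Genes were filtered with filterByExpr and scaled by TMM. A single robust edgeR 4.0.16 fit (quasi-likelihood, R 4.3.3, 6 residual degrees of freedom) held all 9 libraries, with Benjamini-Hochberg adjustment over 15660 genes and a threshold of 0.05. CPM use the scaled library sizes, and TPM were computed from counts and deposited gene lengths. Counting precision differs between members, whose totals over all libraries ran from 840 counts (Fen1) to 52982 (Pcna). The model was tested on simulated data. The 13 gene lists and the 52 members were chosen with earlier results of these data known.

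Values in every library are given, by rule, for the member of each role group with the smallest adjusted p in each comparison, for the members with the largest and smallest fold change, and for members lower in any comparison or called between CCND2mut and CCND2wt. Cdc6, Mcm3, Gins4, Cdk2 and Ccne1 were added after their values were seen. Of the other replication and E2F lists, the 3 with the smallest adjusted p per comparison and direction are named. Of the genes chosen by this rule, 1 is not reported here. A total of 21 other settings were tried, with DESeq2 1.42.0 and limma 3.58.1 (voom) among them.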

Additional observations from a re-analysis of the deposited data

How the results depend on the processing

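No call changed direction under the alternatives tried, while the members' median of 0.07 in CCND2mut against CCND2wt changed sign under some of them. Summing the CCND2wt libraries to 1 sample left 1 member and 39 genes called in CCND2wt against Vec, and 0 members and 2378 genes in CCND2mut against CCND2wt. A threshold of at least 2-fold left 1844 of all genes in CCND2wt against Vec, 5145 genes and 29 members in CCND2mut against Vec, and 4617 genes and 3 members in CCND2mut against CCND2wt. Fitting only the groups compared called 20 members between CCND2mut and CCND2wt. With each library left out in turn, members called ran from 22 to 42 in CCND2wt against Vec and 6 to 18 in CCND2mut against CCND2wt. All genes called in CCND2wt against Vec ran from 1019 (without CCND2wt 4) to 3817 (without CCND2mut 1). Medians of the members ran from 0.88 to 1.25 in CCND2wt against Vec and -0.012 to 0.15 in CCND2mut against CCND2wt. Without Vec 1 and CCND2mut 1, CCND2wt against Vec had a median of 1.25 and 4470 genes called, and CCND2mut against CCND2wt a median of -0.022. Total counts alone gave a median of -0.0931 there. Deviations from the group means had r = -0.073 to 0.187 between same-numbered libraries and -0.214 to 0.259 between libraries of different number. Between CCND2mut and Vec, r was 0.187 and 0.153 for same-numbered libraries and -0.159 to 0.122 for the others. Since each deviation is taken from a mean of 3 libraries, these values cannot decide whether replicate numbers pair the samples. With the replicate number as a block, 34, 42 and 11 members were called in CCND2wt against Vec, CCND2mut against Vec and CCND2mut against CCND2wt. That block called 1636 genes in CCND2wt against Vec and gave a median of -0.0498 in CCND2mut against CCND2wt. The causes were not tested.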
